A study of Rattus norvegicus with 12 samples.

Results

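The genes described here encode the inner steps of G protein signalling, from the G protein itself to the kinases at the end of its 2 best known routes. They were taken by name: each gene symbol of the array that begins with Rgs (regulators of G protein signalling), Gna, Gnb or Gng (G protein alpha, beta and gamma subunits), Adcy (adenylyl cyclases), Prkac or Prkar (subunits of the cAMP-dependent protein kinase, PKA) or Prkc (protein kinase C, PKC) and goes on as the names of those families do, without Rgs9 and Prkcd. This gave 64 genes of the 13337 genes named on the array, read by 65 probes of 22523, since Gnas had 2 probes. By family they were 15 RGS, 16 G alpha, 5 G beta, 6 G gamma, 9 adenylyl cyclase, 5 PKA and 7 PKC probes. The other 2 probes matched only by name: Prkcsh encodes a subunit of glucosidase II, an enzyme of the endoplasmic reticulum, and Rgs9bp encodes an anchor protein of an RGS protein.

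The arrays came from male Wistar rat offspring on postnatal day 70 whose mothers had been dosed by mouth on gestation day 15 with either TCDD, a dioxin that activates the aryl hydrocarbon receptor, or the vehicle, corn oil in the dosing protocol. There were 4 groups of 3 Illumina RatRef-12 BeadChip arrays: vehicle pituitary, TCDD pituitary, vehicle hypothalamus and TCDD hypothalamus, each array with 250 ng of total RNA. The study asked which expression changes persist in adult males exposed before birth. The labels name no litter, dam or animal. The sample titles carry codes, of which 1 vehicle and 1 TCDD code occur in both tissues, but nothing says what a code stands for, so the spread behind each p-value is that between arrays and may be technical, and the submitters' texts give TCDD doses in different units, so no dose is used.

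When a hormone or transmitter activates its receptor, the alpha subunit of a heterotrimeric G protein takes up GTP and parts from the beta and gamma subunits, and RGS proteins end the signal by speeding the hydrolysis of that GTP. Alpha subunits of the Gs class stimulate adenylyl cyclases and those of the Gi class inhibit them; the cAMP formed frees the catalytic subunits of PKA from the regulatory ones, while the Gq class acts through phospholipase C, whose product diacylglycerol activates most PKC isoforms. In the pituitary the Gs and cAMP route carries the signal of growth hormone releasing hormone and corticotropin releasing hormone, and the Gq and PKC route that of gonadotropin releasing hormone. In hypothalamic neurons the same families serve receptors for transmitters and peptides.

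The tissue labels were checked against marker genes. All 7 hormone cell markers with a probe were higher in vehicle pituitary, with a median log2 difference of 6.37, and their summed signal was 99091 to 110360 on pituitary arrays and 3606 to 13682 on hypothalamus arrays. In vehicle hypothalamus 6 of 7 neuron, 4 of 4 astrocyte and 5 of 5 oligodendrocyte markers were higher. Their summed signals were 26448 to 33588, 16985 to 20965 and 11404 to 19986 there, against 4573 to 7297, 1518 to 2436 and 935 to 1202 in pituitary. These were bulk tissues, so fewer cells of a type and less RNA per cell cannot be told apart in any value given here, and the part of cell makeup in the tissue differences was not tested. Between 9934 and 10371 probes were detected on a pituitary array and between 10852 and 11438 on a hypothalamus array, at median signals of 108.1 to 123.6. A probe counted as detected at a detection p under 0.05. No member came near the top of the scale.

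Before the results, 3 hypothalamus arrays have to be named. On vehicle hypothalamus array 1, the 8 probes of the striatum markers averaged 10.07 on the log2 scale, against 8.67 to 8.95 on the other 5 arrays, with a summed signal of 15847 against 7777 to 9053. On TCDD hypothalamus arrays 1 and 2, the 5 thalamus markers averaged 9.59 and 9.25, against 8.21 to 8.44 on the other 4, with summed signals of 15039 and 11493 against 6631 to 9981. By group, the thalamus sums were 6631 to 9308 with vehicle and 9981 to 15039 with TCDD, so the groups did not overlap. All 5 thalamus markers had the higher mean with TCDD, at a median log2 difference of 0.45, and none was called. Members that stood apart on the same arrays are described with the hypothalamus results, and values without 1 array are given wherever they alter a call.

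Most of these genes were expressed in both tissues. Of the 65 probes, 38 were detected on all 12 arrays and 11 on none: Rgs1, Rgs5, Rgs18, Rgs20, Gna13, Gna14, Gnat1, Gnb4, Adcy1, Adcy7 and Prkci. Only Gnb3 and Adcy6 were detected on at least 3 of 6 pituitary arrays and fewer than 3 hypothalamus arrays, while 8 were so detected in hypothalamus alone: Gna15, Gnai1, Gnal, Gng7, Adcy3, Adcy8, Prkar2a and Rgs9bp. An array of pituitary detected 42 to 48 members and an array of hypothalamus 48 to 52. Values below are log2 of the background-corrected, quantile-normalised signal, compared only within a probe, and 54 members entered the comparison of tissues because they were detected on at least 3 of the 12 arrays.

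Hypothalamus held the higher level of more of the G protein and kinase genes than pituitary did. With vehicle, 37 of the 54 members tested differed between the tissues at an adjusted p under 0.05, 25 of them higher in hypothalamus and 12 higher in pituitary. A share of 64.2% of all 12071 probes tested passed the same threshold, 28.5% higher in hypothalamus and 35.7% higher in pituitary, so the members' total of 68.5% was near the background while their split leaned to hypothalamus. Fitted differences of at least 2-fold were found for 16 members higher in hypothalamus and 4 higher in pituitary, of which Gnb3, detected on no hypothalamus array, can be given only as at least 1.51-fold, so that 3 reached 2-fold; the shares of fitted differences over all probes were 12.2% and 10.1%. The median log2 difference, pituitary minus hypothalamus, was -0.22 over the members and 0.086 over all probes. In the TCDD arrays 15 members were at least 2-fold higher in hypothalamus and 5 in pituitary by the fitted difference, or 4 without Gnb3 (at least 1.68-fold), against 12.8% and 10.2% of all probes. At the adjusted threshold alone 25 members were again higher in hypothalamus and 12 in pituitary (64.6% of all probes passed), where 28.8% and 35.8% of all probes were, and 33 members passed in the same direction with vehicle and with TCDD, none in opposite directions. Those that passed with vehicle alone were Rgs12, Rgs14, Rgs16 and Prkca, and those with TCDD alone Gna11, Gnb5, Adcy4 and Prkaca. Without vehicle hypothalamus array 1 the vehicle arrays called 23 members higher in hypothalamus and 10 in pituitary; leaving out TCDD hypothalamus array 1 or 2 left 23 higher in hypothalamus on the TCDD arrays, with 11 or 12 in pituitary. Over all 6 arrays of a tissue, 22 members lay wholly higher in hypothalamus and 10 wholly higher in pituitary, against 25.2% and 29.7% of all probes. Gna15, Gnai1, Gnal, Gng7, Adcy3 and Adcy8 passed the detection filter through their hypothalamus arrays, and Gnb3 and Adcy6 through their pituitary arrays. The directions of these members, counted here, are not independent of that filter.

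The direction of many small tissue differences depends on how arrays are scaled. Scaling to a common median moved the median of all probes from 0.086 to -0.071 with vehicle and from 0.096 to -0.12 with TCDD, and the share of called probes that were higher in pituitary from 55.6% to 41.9% and from 55.4% to 37.3%. The members split 8 to 30 with vehicle and 9 to 30 with TCDD under that scaling, and 9 to 28 and 10 to 28 under cyclic loess. No member called in either set of arrays turned its direction under these scalings; calls that were lost are named with the genes. Calls gained under at least 1 of these scalings were, all on the hypothalamus side, Rgs7, Adcy4, Gnb5, Prkaca, Prkar2b and Rgs9bp with vehicle and Rgs7, Rgs14, Prkca, Prkch and Prkar2b with TCDD.

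**Figure D1:**
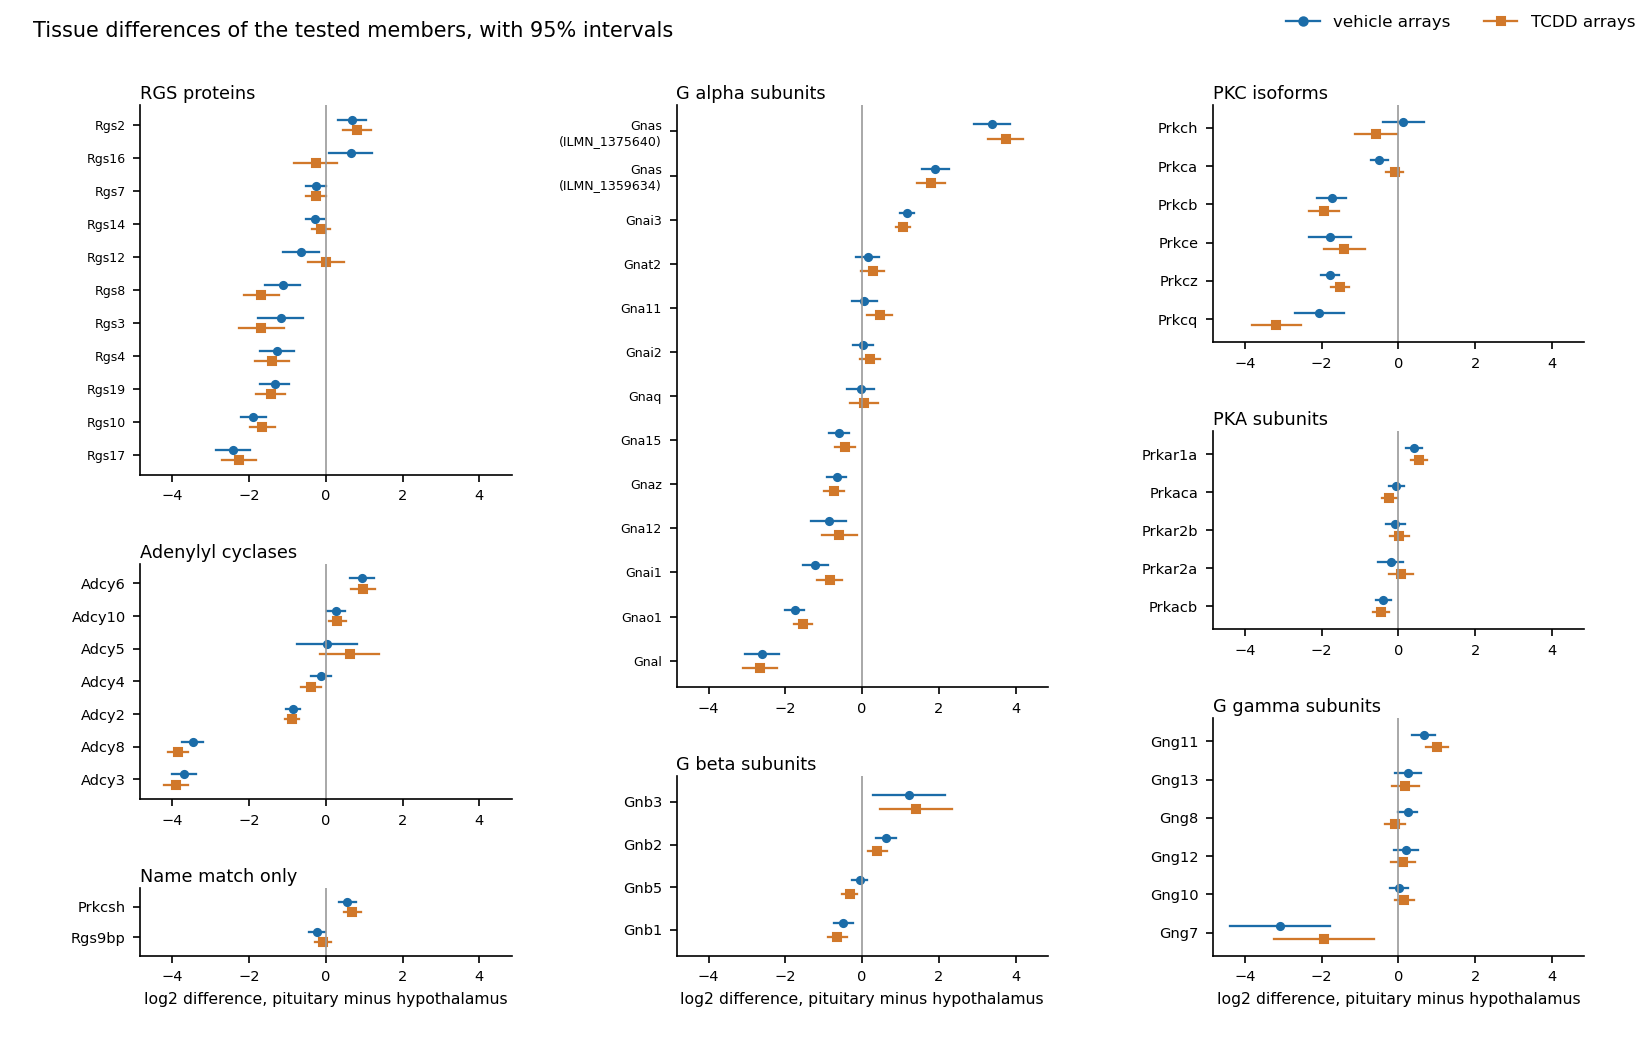
Log2 difference in signal, pituitary minus hypothalamus, for the 54 members tested, grouped by family, with vehicle and with TCDD arrays shown separately and bars for 95% intervals. Adenylyl cyclases 3 and 8 lie farthest to the hypothalamus side, both Gnas probes lie on the pituitary side, and no PKC isoform was called higher in pituitary.

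Among the RGS genes, whose products shorten G protein signals, 8 of the 11 tested were higher in vehicle hypothalamus and 2 in vehicle pituitary. Rgs17 read 5.93, 5.71 and 5.00 on the vehicle pituitary arrays and 5.72, 5.88 and 5.59 on the TCDD pituitary arrays. On hypothalamus arrays the values were 7.68, 8.06 and 8.14 with vehicle and 7.93, 7.96 and 8.10 with TCDD. Rgs17, an RGS protein known for action on Gi and Gz, was thus 5.34-fold higher in vehicle hypothalamus (log2 difference -2.42, SE 0.20, adjusted p = 3.68e-07), and its tissues did not overlap; 2 of 3 vehicle pituitary arrays detected it. Rgs10, a small RGS protein found in neurons and microglia, gave 8.32, 8.39 and 8.15 on the vehicle pituitary arrays and 10.56, 10.06 and 9.92 on the vehicle hypothalamus arrays, a 3.71-fold difference (log2 difference -1.89, SE 0.15, adjusted p = 2.08e-07). Rgs19, also called GAIP, gave 6.18, 5.84 and 6.21 on the vehicle pituitary arrays and 7.40, 7.34 and 7.49 on the vehicle hypothalamus arrays (2.53-fold, adjusted p = 2.82e-05). Rgs4, a brain RGS protein that acts on Gi and Gq, gave 10.30, 9.92 and 10.30 on the vehicle pituitary arrays and 11.75, 11.28 and 11.30 on the vehicle hypothalamus arrays (2.42-fold, adjusted p = 1.45e-04). For all 4 genes each hypothalamus array lay above each pituitary array, TCDD arrays included, and the log2 differences with TCDD were -2.26, -1.65, -1.44 and -1.41. Rgs8 and Rgs3 were also at least 2-fold higher in hypothalamus in both sets of arrays.

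The pituitary had the higher level of Rgs2 and, with vehicle alone, of Rgs16. Rgs2 read 11.45, 11.86 and 12.23 on the vehicle pituitary arrays and 11.76, 11.73 and 12.08 on the TCDD pituitary arrays. Its hypothalamus values were 11.14, 11.07 and 11.30 with vehicle and 11.10, 10.92 and 11.10 with TCDD. Rgs2, which acts mainly on Gq, was 1.59-fold higher with vehicle (log2 difference 0.67, SE 0.17, adjusted p = 0.00367) and 1.76-fold with TCDD (adjusted p = 9.35e-04), with no overlap between tissues; under median scaling the vehicle difference missed the threshold (0.36, adjusted p = 0.0962). Rgs16, an RGS protein whose transcript cycles with the clock in the suprachiasmatic nucleus, gave 5.93, 6.21 and 6.25 on the vehicle pituitary arrays and 5.63, 5.38 and 5.44 on the vehicle hypothalamus arrays (log2 difference 0.65, SE 0.26, adjusted p = 0.0425). On the TCDD arrays it gave 5.92, 5.63 and 6.00 in pituitary and 6.64, 6.38 and 5.32 in hypothalamus, so the tissues overlapped, and the tissue difference there of -0.26 missed the threshold (adjusted p = 0.396). The Rgs16 call with vehicle was lost without vehicle pituitary array 2 (0.62, adjusted p = 0.0992) or 3 (0.60, adjusted p = 0.110), TCDD pituitary array 1 (0.66, adjusted p = 0.0520) or 3 (0.66, adjusted p = 0.0502) or vehicle hypothalamus array 1 (0.72, adjusted p = 0.0516) or 2 (0.59, adjusted p = 0.106) or 3 (0.62, adjusted p = 0.0895). With TCDD it differed without TCDD hypothalamus array 3 (-0.65, adjusted p = 0.00242), and without TCDD hypothalamus array 1 the difference was 0.0008. Median scaling (0.55, adjusted p = 0.104) and cyclic loess also lost it. The smaller calls of Rgs12 (-0.65) and Rgs14 (-0.27) rested on single arrays as well: Rgs12 was lost without vehicle pituitary array 3 (-0.57, adjusted p = 0.0678) or vehicle hypothalamus array 1 (-0.33, adjusted p = 0.0620). Rgs14 was lost without vehicle pituitary array 1 (-0.21, adjusted p = 0.144) or 2 (-0.26, adjusted p = 0.0923), TCDD pituitary array 2 (-0.27, adjusted p = 0.0521) or 3 (-0.27, adjusted p = 0.0507), vehicle hypothalamus array 1 (-0.17, adjusted p = 0.165) or TCDD hypothalamus array 1 (-0.27, adjusted p = 0.0505). Rgs7, below the threshold in both sets (-0.26 and -0.25), passed with vehicle without TCDD pituitary array 1 (-0.26, adjusted p = 0.0279) and with TCDD without TCDD pituitary array 3 (-0.33, adjusted p = 0.0435) or TCDD hypothalamus array 3 (-0.33, adjusted p = 0.0417).

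Both Gnas probes were far higher in pituitary. Gnas encodes Gs alpha, the subunit that stimulates adenylyl cyclase, and its locus also makes other transcripts from further promoters; which of them each probe reads was not determined. The probe ILMN_1375640 read 11.59, 12.02 and 12.10 on the vehicle pituitary arrays and 12.15, 11.83 and 12.14 on the TCDD pituitary arrays, against 8.09, 9.04 and 8.39 and 8.10, 8.47 and 8.33 in hypothalamus, a 10.5-fold difference with vehicle (log2 difference 3.39, SE 0.22, adjusted p = 2.95e-08) and 13.3-fold with TCDD. The other probe, ILMN_1359634, gave 7.40, 7.58 and 7.63 in vehicle pituitary and 5.62, 5.76 and 5.51 in vehicle hypothalamus, a 3.75-fold difference (log2 difference 1.91, SE 0.16, adjusted p = 5.18e-07; 3.47-fold with TCDD). The 2 probes pointed the same way and differed in size, and neither overlapped between tissues. Gnai3 read 11.54, 11.39 and 11.43 on the vehicle pituitary arrays and 11.38, 11.31 and 11.32 on the TCDD pituitary arrays. Hypothalamus gave 10.20, 10.25 and 10.38 on vehicle arrays and 10.24, 10.30 and 10.29 on TCDD arrays. Gnai3, an inhibitory alpha subunit of wide expression, was 2.26-fold higher in vehicle pituitary (log2 difference 1.18, SE 0.085, adjusted p = 1.02e-07), with no overlap.

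Other alpha subunits were higher in hypothalamus. Gnao1 read 10.26, 10.14 and 10.19 on the vehicle pituitary arrays and 10.25, 10.17 and 10.48 on the TCDD pituitary arrays. The hypothalamus arrays gave 12.09, 11.95 and 11.84 with vehicle and 11.95, 11.89 and 11.71 with TCDD. Gnao1, the Go alpha subunit that is abundant in neurons, was thus 3.39-fold higher there with vehicle (log2 difference -1.76, SE 0.11, adjusted p = 2.50e-08) and 2.93-fold with TCDD. Gnal, the Golf alpha subunit that couples dopamine and adenosine receptors to adenylyl cyclase in striatum, read 8.24, 7.36 and 7.30 in vehicle hypothalamus and was not detected on any vehicle pituitary array (4.99, 4.92 and 5.13), which gives at least 4.43-fold (adjusted p = 2.15e-07) and at least 4.36-fold with TCDD. A bound of this kind sets the mean of the detected group against the lowest detected signal of each array of the other group, or the probe's own value where that is higher. An adjusted p beside a bound belongs to the fitted difference and does not test the bound. Gnal and Gng7 were detected on no pituitary array, and Gnb3 and Adcy6 on no hypothalamus array. Adcy3 was detected on 2 of 6 pituitary arrays, and Adcy8, Gnai1 and Gna15 on 1 of 6, while every hypothalamus array detected them. Each of these members entered the test through the tissue where it was higher, so its direction is not independent of the detection filter. Gnai1, another inhibitory subunit, gave 6.58, 6.41 and 6.58 in vehicle hypothalamus against 5.44, 5.37 and 5.10 on vehicle pituitary arrays that did not detect it, at least 2.06-fold (adjusted p = 1.13e-05). The alpha subunit Gna12 read 7.06, 7.20 and 7.18 on the vehicle pituitary arrays and 8.38, 7.87 and 7.80 on the vehicle hypothalamus arrays (-0.87, adjusted p = 0.00263), and its difference of -0.59 on the TCDD arrays lost its call without TCDD pituitary array 3 (-0.41, adjusted p = 0.113) or TCDD hypothalamus array 1 (-0.57, adjusted p = 0.0613) or 2 (-0.42, adjusted p = 0.109). Gnaz and Gna15 were higher in hypothalamus in both sets (-0.66 and -0.59 with vehicle). Gna11, a Gq class subunit, was called with TCDD alone at 0.46; that call was lost without TCDD pituitary array 1 (0.38, adjusted p = 0.0639) or 2 (0.42, adjusted p = 0.0508) or TCDD hypothalamus array 1 (0.40, adjusted p = 0.0572), and under both other scalings. Gnai2, Gnaq and Gnat2 did not pass in either set, except that Gnat2 passed with vehicle without vehicle pituitary array 3 (0.31, adjusted p = 0.0461) and with TCDD without vehicle pituitary array 3 (0.28, adjusted p = 0.0394) or TCDD hypothalamus array 1 (0.38, adjusted p = 0.0338).

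The promoters of Gnas and Gnao1 are shown because these alpha subunits lay farthest to pituitary and, among those detected on all 12 arrays, farthest to hypothalamus, and because cAMP, the product of the Gs route, acts on promoters through the cAMP response element (CRE). Sequences are RefSeq's for the rat build GRCr8, 250 bases before the annotated start to 50 after it, with the start as base 1, and capitals mark the CRE half-site TGACG on either strand. The Gnas window is chr3:183489398-183489697, plus strand, and the Gnao1 window is chr19:11198388-11198687, minus strand.
Gnas: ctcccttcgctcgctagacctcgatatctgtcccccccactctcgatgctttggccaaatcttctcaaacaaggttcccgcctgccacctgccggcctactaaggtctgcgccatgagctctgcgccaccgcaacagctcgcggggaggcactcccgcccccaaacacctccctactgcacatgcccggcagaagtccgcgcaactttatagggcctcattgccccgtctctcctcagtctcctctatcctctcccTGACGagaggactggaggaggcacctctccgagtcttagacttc
Gnao1: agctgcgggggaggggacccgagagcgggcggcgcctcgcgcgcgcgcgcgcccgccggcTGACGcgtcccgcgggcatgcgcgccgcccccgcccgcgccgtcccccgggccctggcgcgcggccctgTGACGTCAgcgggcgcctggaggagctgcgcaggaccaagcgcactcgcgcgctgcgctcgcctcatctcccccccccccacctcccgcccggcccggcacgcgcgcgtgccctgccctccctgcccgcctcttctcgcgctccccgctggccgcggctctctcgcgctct
Gnas held 1 half-site, at bases 7 to 11, and Gnao1 held the full palindrome TGACGTCA at bases -121 to -114 and a half-site at -190 to -186. A half-site inside the palindrome is counted for both motifs. The palindrome was present in 612 of 33469 promoters of this length (1.83%) and the half-site in 21.2%. Of the 50 member genes with an entry, 1 held the palindrome (2.0%) and 13 the half-site (26.0%): 4 of the 8 higher in vehicle pituitary and 4 of the 21 higher in vehicle hypothalamus. A match is a string of letters, not a measured site, and only 1 start per gene is in the table. Since the Gnas locus has further promoters, the window shown may not be that of Gs alpha or of the transcript either probe reads.

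**Figure D2:**
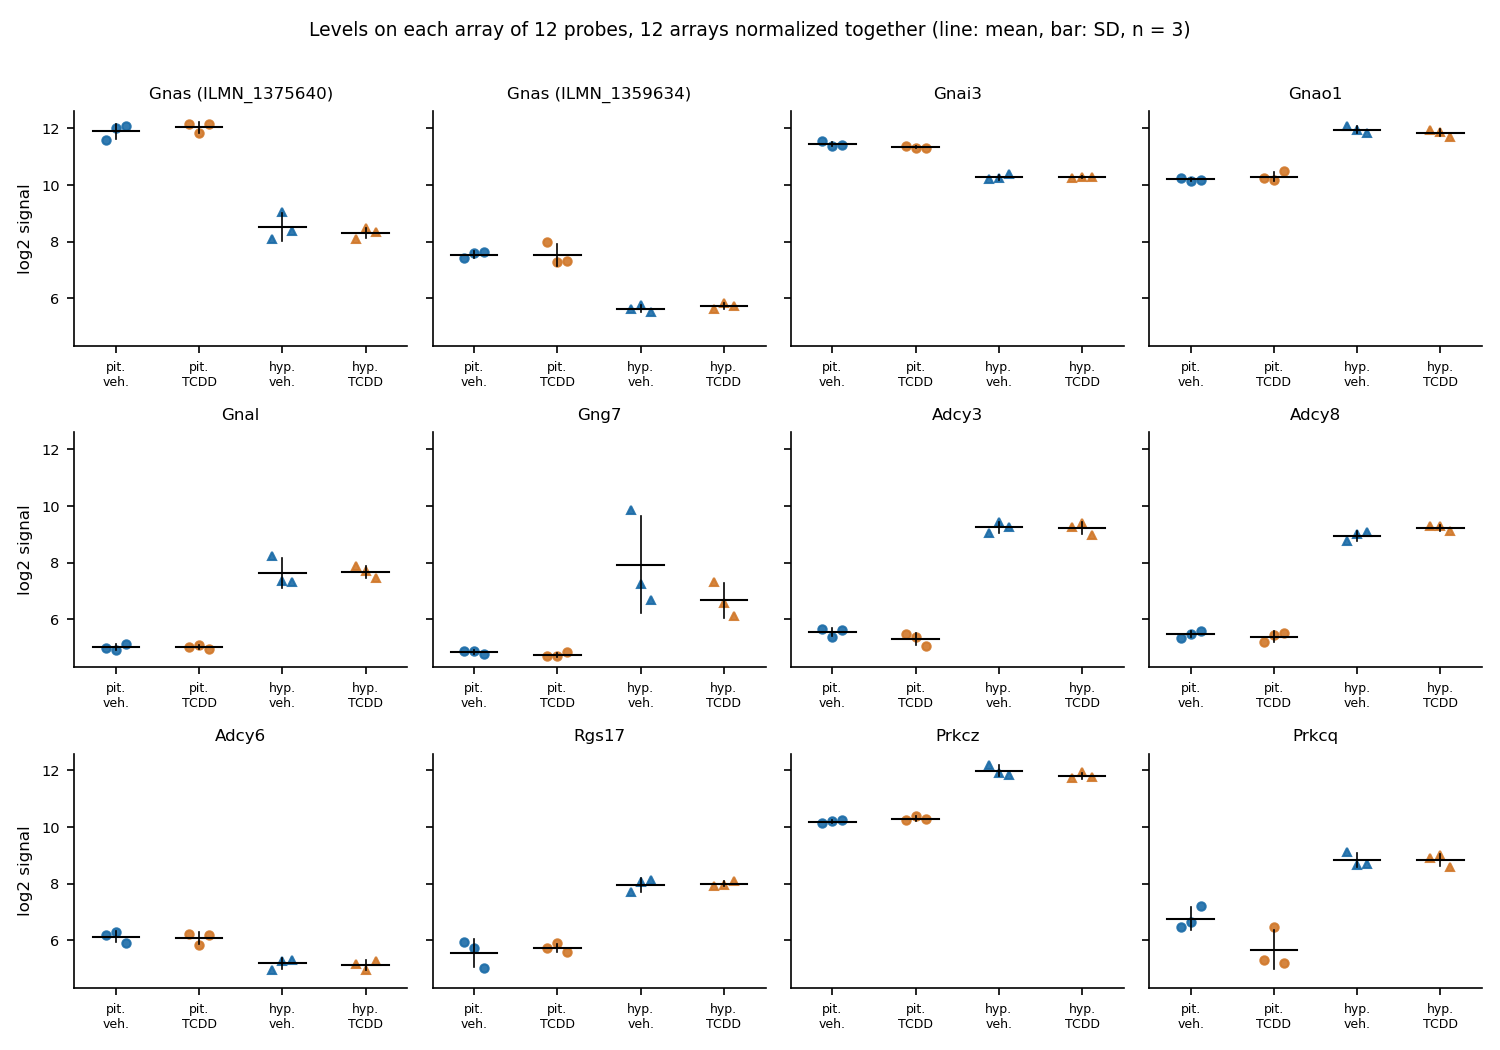
Log2 signal on each of the 12 arrays for 12 probes with large tissue differences, 1 point per array, with a line at each group's mean and a bar for its SD. The pituitary and hypothalamus points do not mix for Gnas, Gnao1, Adcy3 or Adcy8, while the vehicle and TCDD points of a tissue lie together for most members.

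Beta and gamma subunits, which form a dimer in the G protein and have effectors of their own, were split between tissues. Gnb3 read 6.14, 5.05 and 6.57 on the vehicle pituitary arrays and 6.82, 4.93 and 6.50 on the TCDD pituitary arrays. On hypothalamus arrays the values were 4.78, 4.61 and 4.69 with vehicle and 4.65, 4.75 and 4.63 with TCDD. Gnb3 was detected on 2 of 3 arrays of either pituitary group and on no hypothalamus array, and was at least 1.51-fold higher in vehicle pituitary (adjusted p = 0.0238) and at least 1.68-fold with TCDD, with no overlap between tissues over all 12 arrays. The Gnb3 call was lost with vehicle without vehicle pituitary array 1 (1.11, adjusted p = 0.0719) or 3 (0.91, adjusted p = 0.107) or vehicle hypothalamus array 2 (1.18, adjusted p = 0.0600); with TCDD, leaving out TCDD pituitary array 1 lost it (1.04, adjusted p = 0.0591) and leaving out array 2 raised it to 2.00. Gnb2 read 7.57, 7.68 and 7.91 on the vehicle pituitary arrays and 7.05, 7.28 and 6.96 on the vehicle hypothalamus arrays (log2 difference 0.62, SE 0.12, adjusted p = 4.76e-04), and its call on the TCDD arrays (0.40) was lost under median scaling (0.068, adjusted p = 0.616) and cyclic loess (0.24, adjusted p = 0.0860). Gnb1 went the other way, with 12.35, 12.27 and 12.25 on the vehicle pituitary arrays and 12.85, 12.72 and 12.78 on the vehicle hypothalamus arrays (log2 difference -0.49, SE 0.11, adjusted p = 0.00201), and its tissues did not overlap. Gnb5, a beta subunit that pairs with RGS proteins in neurons, was called higher in hypothalamus with TCDD alone (-0.32 against -0.063 with vehicle).

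Of the 6 gamma subunits, Gng11 and Gng7 marked the tissues. Gng11, a widely expressed gamma subunit, gave 10.27, 10.42 and 10.27 on the vehicle pituitary arrays and 9.58, 9.54 and 9.86 on the vehicle hypothalamus arrays (log2 difference 0.66, SE 0.13, adjusted p = 8.72e-04), and 10.22, 10.28 and 10.66 against 9.41, 9.22 and 9.49 on the TCDD arrays, a tissue difference there of 1.01. Gng7 read 4.88, 4.87 and 4.76 on the vehicle pituitary arrays and 4.70, 4.70 and 4.82 on the TCDD pituitary arrays. Its hypothalamus values were 9.87, 7.24 and 6.68 with vehicle and 7.33, 6.59 and 6.10 with TCDD. Gng7, the gamma subunit that partners Golf alpha in striatum, was detected on no vehicle pituitary array and was at least 5.45-fold higher in vehicle hypothalamus (adjusted p = 5.95e-04) and at least 2.18-fold with TCDD. Vehicle hypothalamus array 1, the array with the higher striatum markers, carried much of its vehicle level: without it the log2 difference of -3.10 became -2.12, and without array 3 it became -3.71. With TCDD the call was lost without TCDD hypothalamus array 1 (-1.58, adjusted p = 0.0578). Gng8, Gng10, Gng12 and Gng13 did not pass in either set, apart from Gng12 with vehicle without vehicle pituitary array 1 (0.36, adjusted p = 0.0300).

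With vehicle, the adenylyl cyclases Adcy3 and Adcy8 had the largest fitted tissue differences of all members, and the cyclase isoforms differed in direction. Adcy3 read 5.64, 5.38 and 5.60 on the vehicle pituitary arrays and 5.47, 5.37 and 5.07 on the TCDD pituitary arrays. Hypothalamus gave 9.06, 9.44 and 9.26 on vehicle arrays and 9.26, 9.39 and 8.99 on TCDD arrays. Adcy3, the isoform known from olfactory and neuronal cilia, was 13.1-fold higher in vehicle hypothalamus (log2 difference -3.71, SE 0.14, adjusted p = 2.95e-10; 2 of 3 vehicle pituitary arrays detected it) and at least 12.7-fold with TCDD, where no pituitary array detected it. Adcy8 read 5.35, 5.47 and 5.57 on the vehicle pituitary arrays and 5.18, 5.45 and 5.52 on the TCDD pituitary arrays. The hypothalamus arrays gave 8.75, 9.00 and 9.07 with vehicle and 9.29, 9.30 and 9.11 with TCDD. Adcy8, which calcium and calmodulin stimulate, was 11.1-fold higher there with vehicle (log2 difference -3.48, SE 0.12, adjusted p = 1.26e-10; 1 of 3 vehicle pituitary arrays detected it) and at least 12.8-fold with TCDD. Adcy2, which G beta gamma stimulates together with Gs alpha, gave 10.35, 10.38 and 10.43 on the vehicle pituitary arrays and 11.31, 11.20 and 11.25 on the vehicle hypothalamus arrays (log2 difference -0.87, SE 0.083, adjusted p = 1.42e-06). All 6 hypothalamus arrays lay above all 6 pituitary arrays for these 3 isoforms. Adcy3 and Adcy8 entered the test through their hypothalamus arrays, so their directions are not independent of the detection filter.

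Adcy6 and, narrowly, Adcy10 were the isoforms on the pituitary side. Adcy6 read 6.20, 6.27 and 5.90 on the vehicle pituitary arrays and 6.22, 5.83 and 6.19 on the TCDD pituitary arrays. On hypothalamus arrays the values were 4.96, 5.26 and 5.31 with vehicle and 5.17, 4.93 and 5.25 with TCDD. This isoform, which calcium inhibits, was detected on no vehicle hypothalamus array and was at least 1.74-fold higher in vehicle pituitary (adjusted p = 1.02e-04), with no overlap over the 12 arrays. Adcy10, the soluble cyclase that bicarbonate stimulates, was a small call at 0.27 with vehicle (5.61, 5.59 and 5.41 on the vehicle pituitary arrays and 5.17, 5.44 and 5.20 on the vehicle hypothalamus arrays; adjusted p = 0.0380), with 2 pituitary and 1 hypothalamus array detecting it. It was lost without vehicle hypothalamus array 1 (0.22, adjusted p = 0.117) or 3 (0.23, adjusted p = 0.106), under median scaling (0.25, adjusted p = 0.0682) and under cyclic loess. No TCDD array detected Adcy10, so no difference is given there, though it is counted among the 12 members called higher in pituitary with TCDD, a call lost without TCDD pituitary or hypothalamus array 1. Adcy4 was called higher in hypothalamus with TCDD alone (-0.39), lost without TCDD pituitary array 1 (-0.29, adjusted p = 0.0664) or TCDD hypothalamus array 3 (-0.27, adjusted p = 0.0652). Adcy5, a striatal isoform, missed the threshold in both sets (0.029 and 0.62).

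PKA subunits differed little between the tissues. Prkar1a, the type I alpha regulatory subunit, read 11.80, 11.99 and 12.08 on the vehicle pituitary arrays and 11.53, 11.63 and 11.47 on the vehicle hypothalamus arrays (log2 difference 0.41, SE 0.10, adjusted p = 0.00247), with every pituitary array above every hypothalamus array. That small difference depends on the scaling: it was 0.077, adjusted p = 0.551 under median scaling and 0.21, adjusted p = 0.0749 under cyclic loess; with TCDD (0.53) the call was lost under median scaling (0.17, adjusted p = 0.189). Prkacb, a catalytic subunit, gave 12.88, 12.84 and 12.88 on the vehicle pituitary arrays and 13.10, 13.26 and 13.42 on the vehicle hypothalamus arrays (log2 difference -0.39, SE 0.093, adjusted p = 0.00244), the other way and with no overlap. Prkaca, the alpha catalytic subunit, passed with TCDD alone at -0.24 and lost that call without TCDD pituitary array 2 (-0.24, adjusted p = 0.0773) or 3 (-0.21, adjusted p = 0.114) or TCDD hypothalamus array 2 (-0.20, adjusted p = 0.111) or 3 (-0.24, adjusted p = 0.0705). Prkar2a and Prkar2b passed in neither set.

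PKC isoforms leaned to hypothalamus, where 5 of 6 tested were higher with vehicle and 4 with TCDD, none being called higher in pituitary. Prkcz read 10.15, 10.20 and 10.23 on the vehicle pituitary arrays and 10.23, 10.38 and 10.28 on the TCDD pituitary arrays. Its hypothalamus values were 12.20, 11.91 and 11.84 with vehicle and 11.73, 11.94 and 11.76 with TCDD. Prkcz, an atypical isoform that needs no diacylglycerol, was 3.46-fold higher in vehicle hypothalamus (log2 difference -1.79, SE 0.11, adjusted p = 1.73e-08). Prkcq read 6.45, 6.62 and 7.21 on the vehicle pituitary arrays and 5.30, 6.45 and 5.21 on the TCDD pituitary arrays. Hypothalamus gave 9.11, 8.66 and 8.70 on vehicle arrays and 8.92, 9.00 and 8.58 on TCDD arrays. Prkcq, a diacylglycerol-dependent isoform known best from T cells, was 4.17-fold higher in hypothalamus with vehicle (log2 difference -2.06, SE 0.29, adjusted p = 4.76e-05) and 9.07-fold with TCDD, where 1 of 3 pituitary arrays detected it. Prkce, a diacylglycerol-dependent isoform of neurons, gave 7.35, 6.90 and 6.67 on the vehicle pituitary arrays and 9.36, 8.56 and 8.35 on the vehicle hypothalamus arrays (log2 difference -1.78, SE 0.25, adjusted p = 3.79e-05). Prkcb, a conventional isoform that calcium and diacylglycerol activate, gave 9.65, 9.55 and 9.60 on the vehicle pituitary arrays and 11.79, 11.02 and 11.20 on the vehicle hypothalamus arrays (log2 difference -1.74, SE 0.17, adjusted p = 2.14e-06). The tissues did not overlap for any of these 4. Prkca, also conventional, was called with vehicle alone (-0.49, adjusted p = 9.57e-04; -0.10 with TCDD, where both other scalings called it, at -0.35, adjusted p = 0.00826 under median scaling). Prkch, an isoform known from epithelia, was below the threshold in both sets and passed with TCDD without vehicle hypothalamus array 1 (-0.59, adjusted p = 0.0349) or TCDD hypothalamus array 3 (-0.92, adjusted p = 0.00143). Of the probes matched by name alone, Prkcsh read 9.46, 9.48 and 9.43 on the vehicle pituitary arrays and 8.92, 9.01 and 8.77 on the vehicle hypothalamus arrays (log2 difference 0.55, SE 0.10, adjusted p = 3.53e-04), higher in pituitary without overlap, and Rgs9bp passed with vehicle without vehicle hypothalamus array 2 (-0.29, adjusted p = 0.0307) or TCDD hypothalamus array 3 (-0.23, adjusted p = 0.0432).

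Maternal TCDD gave no called member in the pituitary. None of the 10251 probes tested passed an adjusted p of 0.05 in limma (0%), and 617 (6.02%) had an unadjusted p under 0.05; the alternatives listed in the closing section called 0 to 3 probes and no member. Of the 45 members tested, 4 had an unadjusted p under 0.05, which is 8.89%, and all 4 had the lower mean with TCDD, as 3.29% of all probes did. Leaving out 1 array at a time gave 2 to 5 such members, with 2 without vehicle array 3 or TCDD array 2. Of these, 3 were PKC isoforms. Prkch read 7.86, 7.92 and 7.86 with vehicle and 7.38, 7.24 and 7.49 with TCDD, so every TCDD array lay below every vehicle array. The log2 difference was -0.51 (1.43-fold; SE 0.094, 95% interval -0.73 to -0.30, adjusted p = 0.501). Prkcb read 9.55, 9.45 and 9.50 with vehicle and 9.26, 8.93 and 9.39 with TCDD, a difference of -0.31 (SE 0.13, adjusted p = 0.822), again without overlap. The Prkcb value rests in part on TCDD array 2: without it the difference was -0.18, and its unadjusted p was no longer under 0.05. Prkcq read 6.37, 6.53 and 7.12 against 5.33, 6.36 and 5.24, a difference of -1.03 (SE 0.31, adjusted p = 0.707); its groups all but met, and 1 of 3 TCDD arrays detected it. Gng8, a gamma subunit known from olfactory and vomeronasal neurons, was detected on no TCDD array (5.57, 5.78 and 5.71 against 5.33, 5.47 and 5.54), at least 1.09-fold lower (adjusted p = 0.827). Gng8 entered the test through its 3 vehicle arrays alone, and Prkcq through 3 vehicle arrays and 1 TCDD array. Their lower TCDD means are therefore not independent of the detection filter.

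Counting arrays that do not overlap, 7 of the 45 members (15.6%) separated vehicle from TCDD pituitary, against 11.1% of all probes. Besides these 4, they were Prkca, with 5.81, 5.88 and 5.95 against 6.07, 5.99 and 6.13 (0.18, adjusted p = 0.849), Prkcz (0.10) and Gnai3 (-0.11). The nearest vehicle and TCDD arrays read 10.155 and 10.157 for Prkcz, 11.275 and 11.271 for Gnai3 and 6.365 and 6.361 for Prkcq. The groups of these genes all but met. Thus 5 of the 6 PKC isoforms tested separated the groups, but Prkcq and Prkcz did so by almost nothing. After TCDD 3 had the lower and 2 the higher mean, and Prkce overlapped. The directions of these 5 were the same under median scaling and cyclic loess. The RGS genes lay between -0.28 and 0.22, the adenylyl cyclases between -0.090 and -0.036 and the PKA subunits between -0.029 and 0.14. The median absolute difference was 0.10 over the members and 0.086 over all probes and the 95% interval of a member reached a median of 0.27 to either side. Along with these, the 5 meninges and fibroblast markers had a summed signal of 12166 to 13949 on TCDD pituitary arrays and 16103 to 23454 on vehicle arrays. Of these 5 markers, 2 had the higher mean with TCDD, and the median log2 difference was -0.18. The 4 astrocyte markers had a summed signal of 1863.9 to 2435.6 on TCDD pituitary arrays and 1518.5 to 1678 on vehicle arrays. The part of either list in the members' values was not tested.

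**Figure D3:**
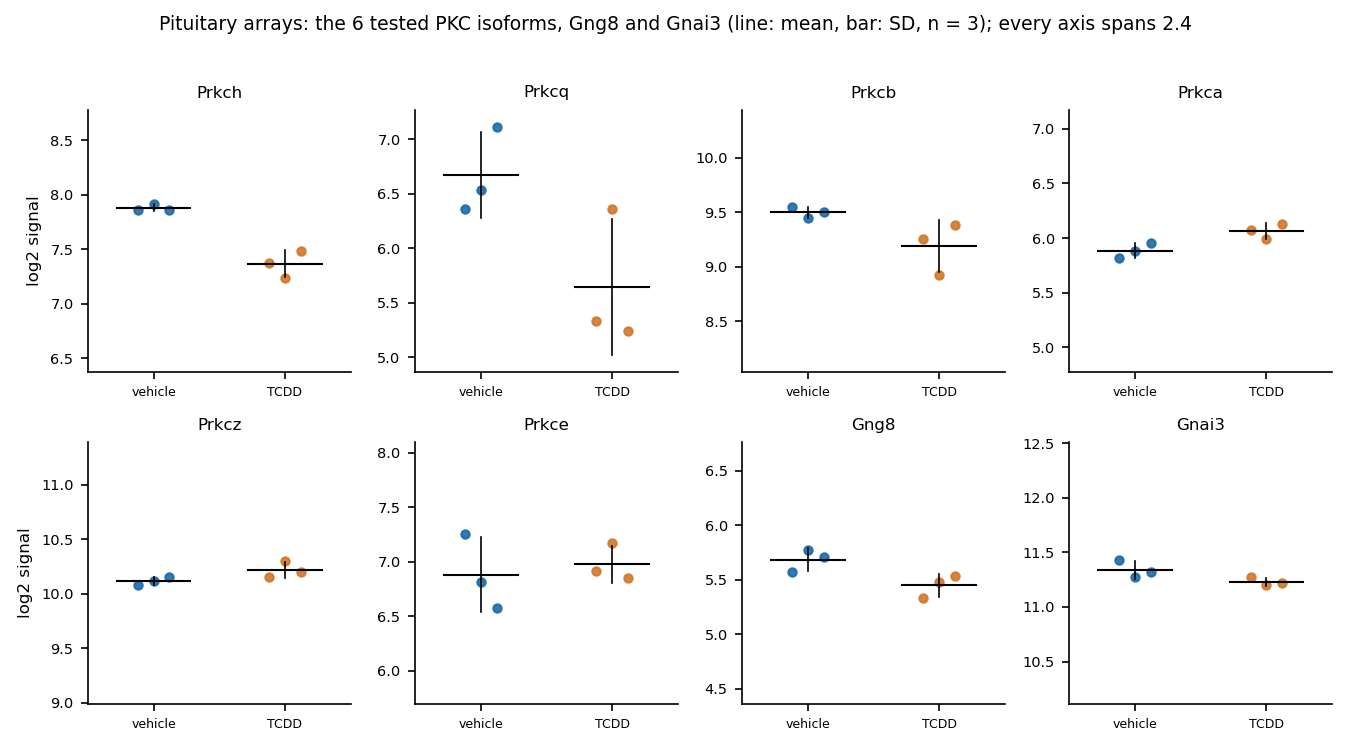
Log2 signal of the 6 PKC isoforms tested, Gng8 and Gnai3 on the 3 vehicle and 3 TCDD pituitary arrays, with a line at each mean and a bar for the SD. Prkch, Prkcb and Prkcq lie lower on the TCDD arrays and Prkca and Prkcz slightly higher, Prkce overlaps, and no adjusted p falls under 0.05.

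The promoters of Prkcq and Prkca are shown as those of the PKC isoforms with the smallest p for a different TCDD effect in the tissues, described with that test. TCDD acts through the aryl hydrocarbon receptor, which binds the xenobiotic response element (XRE), and capitals mark its core GCGTG on either strand. The RefSeq window in GRCr8 is chr17:72288459-72288758, minus strand, for Prkcq and chr10:93787278-93787577, minus strand, for Prkca, with the start as base 1.
Prkcq: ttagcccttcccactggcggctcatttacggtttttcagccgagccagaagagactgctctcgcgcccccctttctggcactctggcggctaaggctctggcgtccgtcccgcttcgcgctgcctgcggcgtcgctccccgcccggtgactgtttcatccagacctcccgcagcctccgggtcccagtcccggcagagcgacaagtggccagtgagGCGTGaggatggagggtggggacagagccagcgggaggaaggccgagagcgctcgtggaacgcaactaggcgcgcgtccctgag
Prkca: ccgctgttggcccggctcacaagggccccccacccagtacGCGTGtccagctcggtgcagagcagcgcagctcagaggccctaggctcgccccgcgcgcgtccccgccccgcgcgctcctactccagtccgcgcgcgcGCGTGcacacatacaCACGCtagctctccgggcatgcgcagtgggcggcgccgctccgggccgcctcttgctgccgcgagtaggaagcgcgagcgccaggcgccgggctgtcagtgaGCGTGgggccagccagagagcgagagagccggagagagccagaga
Prkcq held 1 core, at bases -34 to -30, and Prkca held 4, the first at -210 to -206 and the last at 6 to 10. The core was found in 29.7% of all 33469 promoters and in 24 of 50 member genes (48.0%), among them 4 of 8 higher in vehicle pituitary and 10 of 21 higher in vehicle hypothalamus. The shares were not matched for GC content, which was 67.0% in the Prkcq window and 73.3% in the Prkca window, so no enrichment is read from them. These counts describe letters in this window and say nothing of receptor binding.

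In the hypothalamus no member was called either. A single probe of 11246 passed the adjusted threshold (0.00889%), 606 (5.39%) had an unadjusted p under 0.05, and 1 of the 51 members tested did (1.96%), or 0 to 5 with 1 array left out: 0 without vehicle array 2 or TCDD array 1 or 2, and 5 without vehicle array 3 or TCDD array 3. That member was Adcy8, the calcium-stimulated cyclase, with 8.85, 9.10 and 9.17 on vehicle arrays and 9.38, 9.39 and 9.20 on TCDD arrays. Its TCDD mean lay 0.29 above the vehicle mean (SE 0.12, 95% interval 0.00035 to 0.57, adjusted p = 0.884), with no overlap. The groups also did not overlap for Rgs7 (0.24, 11.40, 11.44 and 11.40 against 11.77, 11.67 and 11.50), Gng11 (-0.28) and Prkca (-0.20, or -0.11 without vehicle array 1, groups that all but met), in all 4 members or 7.84%, against 10.9% of all probes. All 3 beta subunits tested had the higher mean with TCDD, by 0.024 to 0.17, and 10 of 13 G alpha probes the lower. No alpha or beta probe had an unadjusted p under 0.05 in limma. The share of all probes with a higher or lower mean is not given here, so these counts are not read as a shift of either family. The median of all probes was 0.0031, and 0.030 under median scaling. The 95% interval of a member reached a median of 0.31 to either side.

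The largest TCDD differences in hypothalamus belonged to members that stood apart on single arrays. Gng7 read 9.96, 7.34 and 6.77 with vehicle and 7.42, 6.68 and 6.17 with TCDD, a mean difference of -1.26 (SE 0.74, adjusted p = 0.884) with overlapping groups. Adcy5 read 9.71, 8.76 and 8.17 against 8.35, 8.71 and 7.66 (-0.64), and Rgs16 5.63, 5.36 and 5.42 against 6.73, 6.46 and 5.29 (0.69), also overlapping. Without vehicle array 1 the difference was -0.30 for Gng7 and -0.23 for Adcy5. That of Rgs16 was 0.40 without TCDD array 1, 0.54 without TCDD array 2 and 1.13 without TCDD array 3. On vehicle hypothalamus array 1, 11 of 51 members lay at least 0.5 above the median of the other 5 arrays and none lay as far below, where 5.81% and 4.73% of all probes did. They were Gng7 (9.96 against a median of 6.77), Adcy5 (9.71 against a median of 8.35), Gnal, Rgs12, Prkce, Prkch, Gna11, Prkcb, Rgs3, Gna12 and Rgs10, and of these Gng7, Gnal and Adcy5 are known from the Golf and cyclase pathway of striatum. On TCDD hypothalamus array 1, 5 members lay as far above (Rgs16, Rgs3, Prkch, Gng7 and Rgs4), where 2.01% of all probes did, and on TCDD array 2 there were 4 (Rgs16, Rgs3, Rgs8 and Prkch), against 1.32%, with Gng7 below. TCDD array 3 had 5 below and none above, against 2.78% and 2.83% of all probes. The striatum markers were high on vehicle array 1 and the thalamus markers on TCDD arrays 1 and 2, as given above, and their part in these values was not tested.

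**Figure D4:**
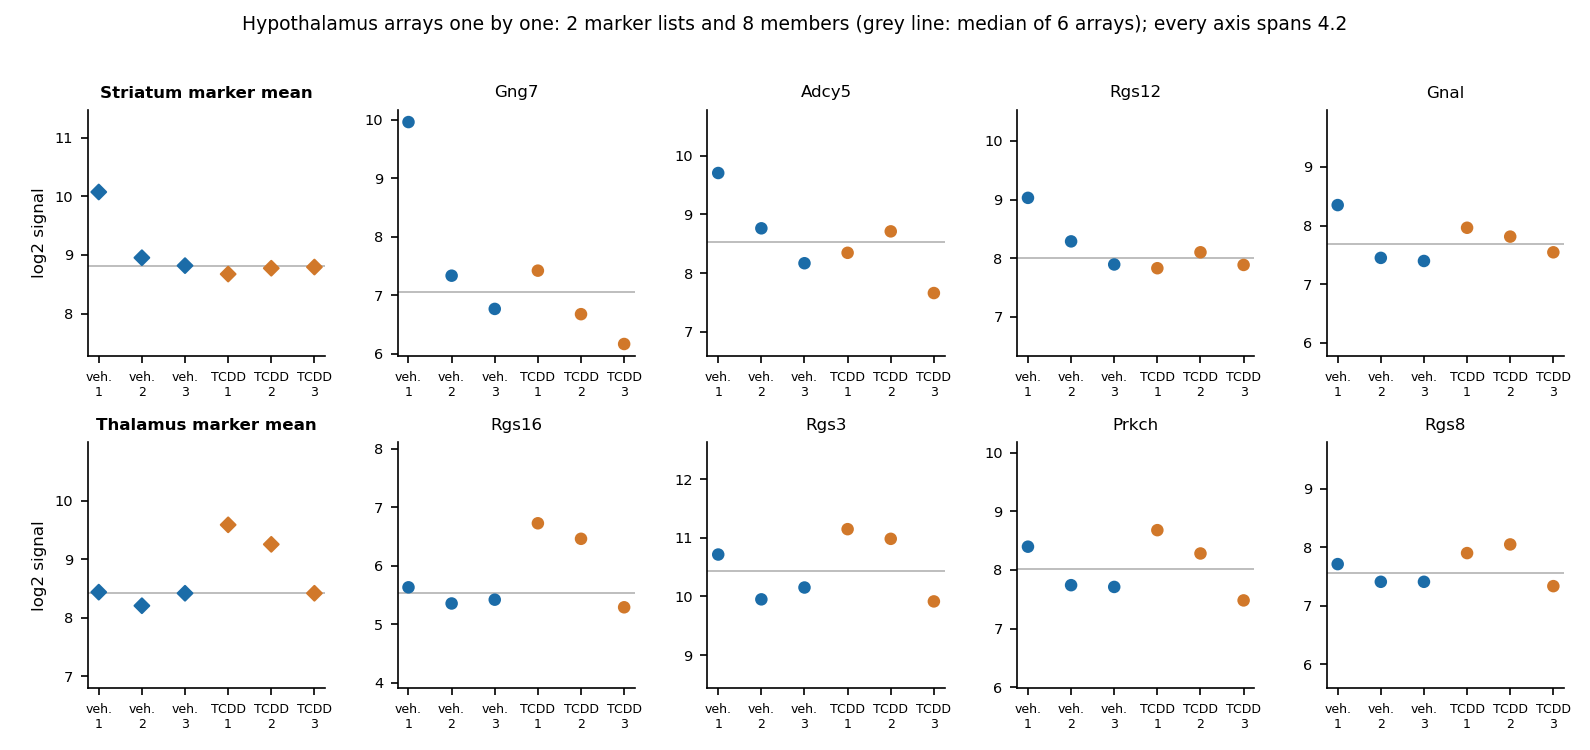
Log2 signal on each of the 6 hypothalamus arrays, with a grey line at their median, for members that stood apart on single arrays, beside the mean of the striatum and thalamus markers. Gng7, Adcy5 and Gnal peak on vehicle array 1, as the striatum markers do, and Rgs16 is high on TCDD arrays 1 and 2, as the thalamus markers are.

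Whether TCDD acted differently in the tissues was tested in the fit of all 12 arrays. No member and no probe of 12071 passed (0%), the unadjusted p was under 0.05 for 744 probes (6.16%) and for 3 of 54 members (5.56%). For Prkca the TCDD difference was 0.20 in pituitary and -0.19 in hypothalamus, a difference of 0.40 between them (SE 0.14, adjusted p = 0.723); its hypothalamus arrays read 6.70, 6.38 and 6.43 with vehicle and 6.22, 6.30 and 6.38 with TCDD. Prkcq differed by -1.12 (SE 0.41, adjusted p = 0.723), Rgs16 by -0.91 (SE 0.37, adjusted p = 0.750) and Adcy8 by -0.37 (SE 0.17, adjusted p = 0.811). The sign of the TCDD difference was the same in both tissues for 13 of the 43 members tested in each (30.2%), and for 47.6% of 9605 probes.

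**Figure D5:**
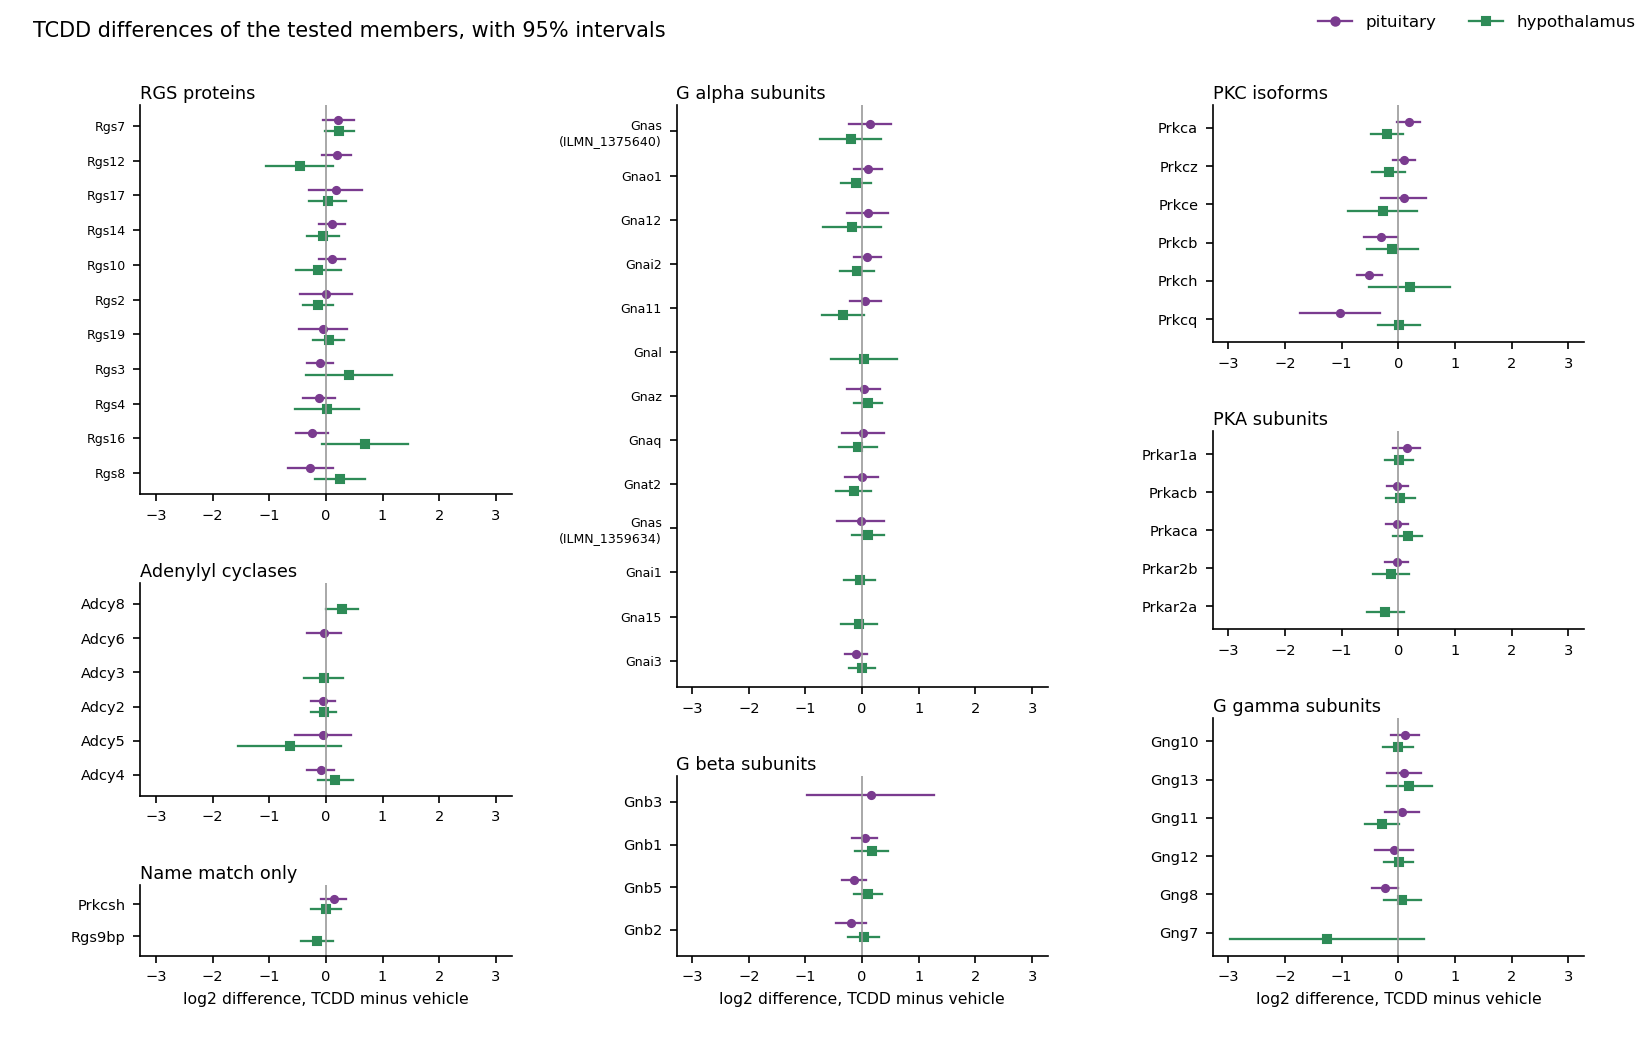
Log2 difference, TCDD minus vehicle, in pituitary and in hypothalamus for the members tested, grouped by family, with 95% intervals. The intervals of most members include 0, the widest is that of Gng7 in hypothalamus, and no adjusted p falls under 0.05 in either tissue.

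Other genes of the same pathways were read from 3 lists, and no gene of any list was called for TCDD in either tissue. Of 19 further cAMP genes 16 had a probe, and of the 14 probes tested 5 were higher in vehicle pituitary and 4 in vehicle hypothalamus. Over all probes, 35.7% were called higher in vehicle pituitary and 28.5% in vehicle hypothalamus. Crem, a transcription factor that PKA phosphorylates, had 2 probes higher in pituitary, by 2.60 (SE 0.16, adjusted p = 1.68e-08) and 2.33, and Atf1, of the same family, was higher by 1.61. On the hypothalamus side were Pkia, an inhibitor of PKA (-0.84), and Akap6, a PKA anchor (-0.88). The first Crem probe had the smallest p for TCDD in both tissues, at a log2 difference of -0.44 in pituitary (SE 0.13, adjusted p = 0.707) and 0.52 in hypothalamus (SE 0.16, adjusted p = 0.884).

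The phospholipase C list covered 14 of 21 genes. Of the 11 tested, 5 were higher in vehicle hypothalamus and 1 in vehicle pituitary, against 28.5% and 35.7% of all probes. The exception was Plcg2, the phospholipase of immune receptors (2.79, SE 0.12, adjusted p = 1.00e-09; 6.93-fold), while Marcksl1, a relative of the PKC substrate MARCKS (-2.57), Plcb1, an effector of Gq (-1.88), and Plcd1 (-1.78) were on the hypothalamus side. In pituitary the smallest p for TCDD was that of Plcb1 (0.27, SE 0.092, adjusted p = 0.770). All 15 receptor kinases, arrestins and G protein helpers had a probe; 4 of 12 tested were higher in vehicle pituitary, led by Gpsm2 (0.58) and Pdcl (0.56), and 5 in vehicle hypothalamus, led by Grk2, which phosphorylates active receptors (-1.35), and Arrb1, an arrestin (-0.78). With TCDD the 3 lists had 5, 2 and 4 probes higher in pituitary and 5, 6 and 6 in hypothalamus, against 35.8% and 28.8% of all probes. These small counts are not read as a lean of any list.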

How the data were processed

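Total RNA of pituitary and hypothalamus was hybridised to 12 one-colour Illumina RatRef-12 arrays. The deposited table holds the authors' non-normalized mean bead intensity per probe and a detection p-value; the scanner settings were not given in the sources used here. Per the series text, a second deposited table, normalized by the authors within each tissue, has intensity medians of 169.2 to 171.4, served as an alternative only, and does not state its method. With limma 3.58.1 in R 4.3.3, intensities were background-corrected by normexp using the detection p-values (offset 16), quantile-normalized and taken to log2. Each tissue was fitted alone for TCDD against vehicle (6 arrays), and the 12 arrays together for the tissue contrasts and the difference of TCDD effects. Probes detected (p under 0.05) on at least 3 arrays of a fit were tested with lmFit and eBayes, two-sided, and adjusted by Benjamini-Hochberg over all probes tested. The 5 comparisons share arrays. The model fit and its calls were tested on simulated data. Background correction, normalization and the detection filter were not simulated.

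Genes come from the platform annotation: 13793 probes have 1 symbol and 8730 have none here. The members and the gene lists were chosen with earlier results of these data known. Values per array are given, in each family, for up to 4 members per tissue with the largest called vehicle difference, for members with an unadjusted p under 0.05 and separate groups for TCDD, and for the 4 smallest p of the difference between tissues; others named with array values (Rgs7, Prkca, Gng7, Adcy5 and Rgs16 in the TCDD comparisons) were added after their values were seen. The step of 0.5 on the log2 scale, used for arrays that stand apart, was also set after seeing the data. Replicate arrays differed in values, with none identical. Whether the replicate numbers, taken from the sample descriptions, pair arrays was not settled. Deviations of same-numbered arrays correlated at 0.069, 0.18, 0.067 in pituitary and 0.11, 0.094, 0.26 in hypothalamus. Vehicle and TCDD arrays of different numbers correlated at -0.13 to 0.044 in pituitary, below every same-numbered pair, and at -0.38 to 0.25 in hypothalamus. With 3 arrays per group these values cannot decide whether arrays were paired. The titles carry another numbering, which is not stated to mark animals. The 4 pairs of one tissue with the same title number correlated at 0.18, 0.067, 0.25 and 0.13, and the 2 pairs with the same code in both tissues at -0.21 and 0.10. The number of arrays limits the precision. Blocks on the title numbers and codes were added after seeing the data. Alternatives were other scalings, background and filter settings, variance models, array weights, a replicate block, the authors' table and leaving out each array. Figures were drawn with matplotlib 3.10.9. Promoter windows came from RefSeq (GRCr8); 14 member genes without an entry were not searched.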

Additional observations from a re-analysis of the deposited data

Results flagged for a closer look

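Prkca was the member whose arrays moved in opposite directions in the tissues: every TCDD pituitary array lay above every vehicle pituitary array, and every TCDD hypothalamus array lay below every vehicle hypothalamus array, though there the groups all but met. The difference between the TCDD effects was 0.40 on the log2 scale (limma, adjusted p = 0.723), which does not pass the threshold after adjustment. Leaving out 1 array at a time gave 0.30 to 0.45. In hypothalamus the TCDD difference of -0.20 was -0.11 without vehicle array 1, the array with the higher striatum markers. No test for a sample far from the others was made, since the groups hold 3 arrays.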

How the results depend on the processing

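No member was called for TCDD in either tissue, or for a different TCDD effect between tissues, under any alternative that was run. Over all probes the pituitary count of 0 became 2 without background correction, 1 with probes detected on every array, 3 with a trended robust variance, 1 with array weights and 2 in the authors' table, and 0 to 3 when 1 array was left out. The hypothalamus count of 1 became 2 under median scaling, without background correction, without the filter, with probes detected on every array and in the authors' table, 3 with a trended robust variance and with array weights, 0 in the fit of all 12 arrays, and 1 to 3 with an array left out. The count for the difference between tissues went from 0 to 1 with an array left out (0 to 1). Of the probes at an unadjusted p under 0.05, median scaling moved the share higher with TCDD from 45.4% to 20.2% in pituitary and from 49.8% to 63.7% in hypothalamus. The tissue count of 37 members became 24 of 38 with probes detected on every array, and 33 to 38 in either set with an array left out; cyclic loess put the share of called probes higher in pituitary at 46.1% with vehicle and 45.5% with TCDD. The Rgs16 TCDD tissue difference of -0.26 became 0.0008 without TCDD hypothalamus array 1 and -0.65 without array 3. Tissue calls of Rgs16 and Adcy10 with vehicle and of Gng7 with TCDD were also lost without background correction, those of Rgs16 and Gnb3 without the filter, and those of Gnb3 and Adcy10 with a trended robust variance or array weights. With the replicate number of the descriptions as a block, a pairing that the correlations left unsettled, 0 pituitary and 1 hypothalamus probe were called for TCDD. That block called 0 probes for the difference, 7706 with 34 members for vehicle tissues and 7784 with 38 members for TCDD tissues. Rgs16 and Adcy10 missed the threshold there. With the number in the titles as a random block, chosen after seeing the data, 1 pituitary and 2 hypothalamus probes were called for TCDD. With the full title code as one, 0 were called for the difference, and the 37 members called with vehicle and the 37 with TCDD were the same ones. The cause of these moves was not tested. The offset of 16 compresses differences near background, and 11 members detected nowhere could not be compared.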
